A study of Homo sapiens with 6 samples.

Results

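Heat shock chaperones are the proteins that fold other proteins, keep them from clumping and hand them on for breakdown. The group described here holds 48 genes of the cytosolic and mitochondrial chaperone machinery, chosen by name: the heat shock factors, HSP90 and its co-chaperones, HSP70 and HSP110, J-proteins (HSP40), BAG factors with STUB1, small heat shock proteins, and the chaperonins of mitochondria (HSPD1 and HSPE1) and cytosol (TRiC). All 48 were found among the 24976 symbols of the count table, and all 48 passed the filter on low counts that left 15638 symbols to test. The filter keeps a symbol with enough counts in 3 libraries.

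In 3 libraries GDH1 was knocked down with siRNA in LN229 cells, an established human glioblastoma line, for 24 h, and 3 control libraries came from LN229 cells labelled wild type and titled NC. GDH1 is the protein of GLUD1, the mitochondrial enzyme that turns glutamate into 2-oxoglutarate. Both groups were grown in serum-containing medium and sequenced from total RNA. Transfection used lipofectamine 3000. No source used here says whether the 3 knockdown libraries share 1 siRNA or what the mixture abbreviated NC held. The design calls the 3 cultures of a group biological replicates.

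As background, HSF1 is the transcription factor that drives chaperone genes when unfolded proteins accumulate. In unstressed cells HSP90 and HSP70 hold it inactive. HSP70 binds unfolded stretches with the help of J-proteins, and HSP110 and BAG proteins make it let go of nucleotide. HSP90 then matures kinases and steroid receptors, and TRiC folds actin and tubulin. Some of these genes are made at a steady rate in every cell and others mostly after stress: HSP90AB1 is the usual example of the first kind and HSP90AA1 of the second. Cancer cells commonly carry high levels of both.

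Library totals lay between 31201100 and 35619614 counts. GLUD1, which checks the labels, had 20.9, 26.2 and 26.7 CPM (counts scaled to library size by edgeR with TMM factors) in the knockdown libraries, against 88.3, 85.5 and 85.7 CPM in the controls. Markers of glia were present (8 of 10 above 1 CPM, VIM, NES and CD44 among them), but CHI3L1 was at 0. GFAP averaged 0.542 ± 0.106 CPM in the knockdown and 0.334 ± 0.0783 CPM in controls (SD, n = 3 each). Of 9 glial markers tested with edgeR, 3 were called higher in the knockdown and 3 lower (13% and 13.1% of all tested symbols). The log2 fold changes were 0.78 for SOX2, 0.44 for CD44 and 0.21 for VIM. They were -1.13 for S100B, -1.10 for OLIG2 and -1.45 for FABP7. The summed levels of 5 leukocyte markers were 26.8 to 29.7 CPM in the knockdown and 13.8 to 17.1 CPM in controls, nearly all of it CD68, and those of 5 neuron markers were 73.3 to 84.8 CPM and 91.5 to 97.7 CPM. The part of other cells in the results was not tested.

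Chaperone transcripts were more abundant in the knockdown. Of the 48 genes, 22 rose, 0 fell and 26 did not pass an adjusted p of 0.05 in edgeR's quasi-likelihood test, where 13% of all tested symbols were called higher and 13.1% lower. DESeq2 called 23 higher and 0 lower (13.6% and 13.8% of all tested symbols), and limma-voom 21 and 0 (12.9% and 13.4%). At an unadjusted p under 0.05 edgeR had 25 higher and 2 lower, beside 19.2% and 19.5% of all tested symbols. The median log2 fold change was 0.21 over the 48 genes and -0.0033 over all tested symbols. Among abundant symbols (average log2 CPM of 8 or more), 10 of 13 members rose, beside 26.6% of all such symbols. The changes were mostly small: 3 members (HSP90AA1, HSPA4L and HSPH1) rose by at least 0.5 on the log2 scale, which 5.04% of all tested symbols did. A positive log2 fold change was found for 37 of the 48, against 49.7% of all tested symbols. The CPM of all 3 knockdown libraries lay above all 3 controls for 25 members and below them for 2 (21.6% and 20.5% of all tested symbols).

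Single libraries moved these counts. Leaving out control 1 gave 12 members higher (7.31% of all tested symbols higher and 6.62% lower), control 2 gave 14 (8.94% and 9.38%), control 3 gave 14 (7.27% and 6.69%) and knockdown 2 gave 14 (7.46% and 7.11%). Leaving out knockdown 3 gave 19 (11.1% and 10.6%), and knockdown 1 gave 25 higher and 5 lower (18.7% and 20.5%), the 5 being HSF1, CDC37, HSPA2, BAG1 and STUB1. At an adjusted p under 0.01, 12 members rose (6.48% of all symbols higher, 6.25% lower), and against a fold of 1.2 with glmTreat 8 rose (4.54% and 4.84%). With no filter on low counts 22 rose (9.5% and 9.62%). With rows of a symbol kept separate and only its largest row read, 18 rose and 0 fell (11.2% and 10.4%). The replicate number as a block gave 23 and 2 (14.5% and 16.1%). A group of 12 members kept an adjusted p under 0.05 with any 1 library left out and under 10 other settings. These settings varied scaling, filter, tool, pairing, row handling and GC content. The 12 were HSP90AA1, STIP1, FKBP4, HSPA4L, HSPA8, HSPH1, HSPB8, HSPD1, TCP1, CCT4, CCT5 and CCT6A. No share over all tested symbols was computed for this count. HSPA8, HSPB8, TCP1 and CCT6A did not pass glmTreat against a fold of 1.2 (adjusted p from 0.11 to 0.45). HSPB8 also missed the threshold of 0.01 (adjusted p = 0.011, edgeR).

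**Figure D1:**
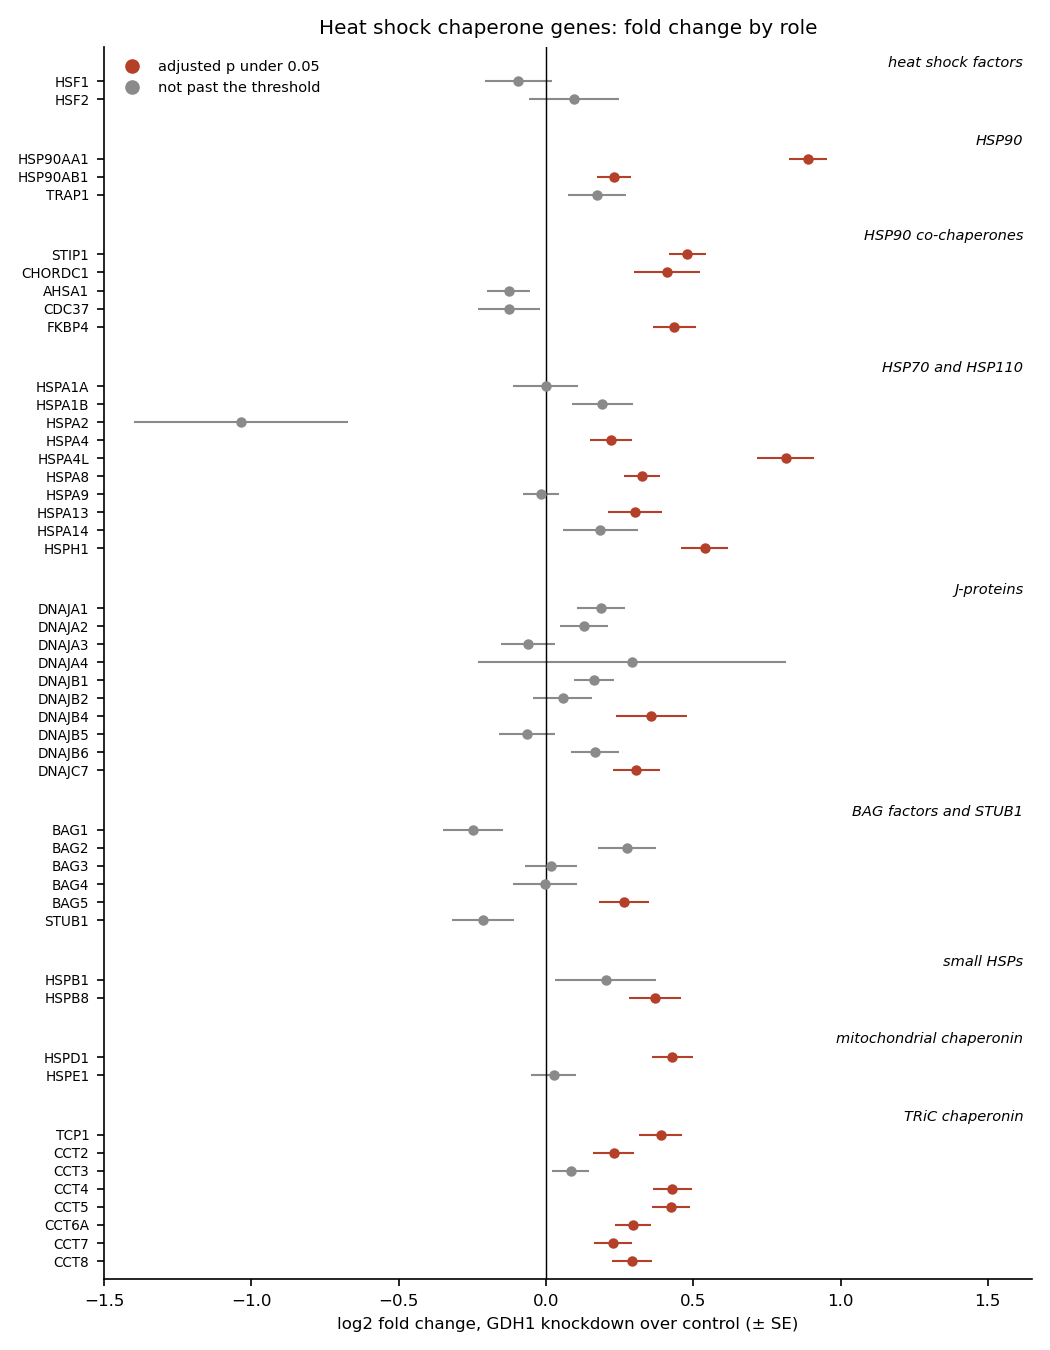
Log2 fold change (x axis, knockdown over control, bars are ± SE of the edgeR fit) of each of the 48 chaperone genes, grouped by role. Red points are the 22 genes with an adjusted p under 0.05, all to the right of 0; HSP90AA1 (0.89) and HSPA4L (0.81) lie farthest right, and HSPA2 (-1.04), a gene at about 1 CPM, lies farthest left without passing the test.

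Together the 48 genes took 1.31%, 1.32% and 1.41% of all counts in the knockdown libraries, against 1.04%, 1.08% and 1.08% in the controls. HSP90AA1 alone took 0.232%, 0.242% and 0.270% in the knockdown and 0.131%, 0.138% and 0.137% in controls. Without HSP90AA1 the other members still took 1.10 ± 0.0343% in the knockdown and 0.932 ± 0.0217% in controls (SD, n = 3 each).

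The heat shock factor genes did not pass the test. HSF1 (chromosome 8, 144291604 to 144314720, GRCh38.p14) had 105, 82.9 and 75.1 CPM in the knockdown libraries, against 99.6, 86.2 and 94.3 CPM in the controls, so that the groups overlapped. Its log2 fold change was -0.09 (SE 0.11, adjusted p = 0.59, edgeR). Its 2 rows in the table were summed, as were those of every symbol with several rows, and its rows went opposite ways. One had 888, 1254 and 1037 counts in the knockdown libraries and 1644, 1322 and 1494 in the controls. The other, the row with more counts, had 2753, 1523 and 1590 in the knockdown and 1791, 1388 and 1602 in controls. Where rows were kept separate, the row with the most counts stood for each symbol, and for HSF1 its value was 0.23 (adjusted p = 0.50). HSF2, a related factor best known from development, was also not called. HSF1 was lower without knockdown library 1 (-0.24, adjusted p = 0.021) and higher once the GC trend described further on was removed (0.21, adjusted p = 6.57e-04). Its RNA level does not report the activity of the protein, which is regulated after translation.

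HSP90AA1, the stress-inducible cytosolic HSP90 gene (chromosome 14, 102080742 to 102139749), rose the most of the 48. It had 82689, 80845 and 94129 counts in knockdown libraries 1 to 3, against 44953, 43151 and 44746 in control libraries 1 to 3. Scaled to library size these were 2373, 2412 and 2692 CPM in the knockdown and 1303, 1372 and 1363 CPM in controls. Every knockdown library was above every control by a wide margin. The mean was 1.85 times the control mean, and the log2 fold change was 0.89 (SE 0.07, adjusted p = 3.24e-06, edgeR), with 0.83 to 0.93 when any 1 library was left out. By the size of the increase in CPM (1147), it ranked 2 among all 15638 tested symbols, though by log2 fold change it ranked 563. Its rank by count moved to 24, 19 and 15 in the knockdown libraries, against 43, 41 and 42 in controls.

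HSP90AB1, the constitutive paralog (chromosome 6, 44246194 to 44253883), rose less. It had 1657, 1631 and 1730 CPM in the knockdown libraries and 1376, 1454 and 1444 CPM in the controls. The groups did not overlap, and the log2 fold change was 0.23 (SE 0.06, adjusted p = 0.013). The call was lost without control library 1 (adjusted p = 0.068), control library 3 (0.052) or knockdown library 2 (0.051). TRAP1, the mitochondrial HSP90, had 122, 101 and 92.7 CPM in the knockdown against 98.5, 88.4 and 93.7 CPM in controls, and did not pass (log2 fold change 0.17, adjusted p = 0.22). It passed without knockdown library 3 (0.26, adjusted p = 0.045).

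Within each library the ratio of HSP90AA1 to HSP90AB1 counts needs neither gene length nor scaling. It was 1.43, 1.48 and 1.56 in the knockdown libraries, against 0.947, 0.944 and 0.943 in the controls. The log2 ratio was thus higher by 0.66 in the knockdown (SE 0.03), with all 3 libraries on the same side. In a two-sided exact permutation test p was 0.1, which no split of 3 and 3 libraries can go below, or 0.17 after Benjamini-Hochberg adjustment over 10 ratios. Per kilobase of transcript, HSP90AA1 had 710 ± 49.6 CPM per kb in the knockdown and 383 ± 10.7 in controls (length 3510 bases), and HSP90AB1 had 626 ± 19.2 and 533 ± 15.8 (2674 bases; SD, n = 3 each). The order of the paralogs on that scale depends on the transcript lengths chosen.

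**Figure D2:**
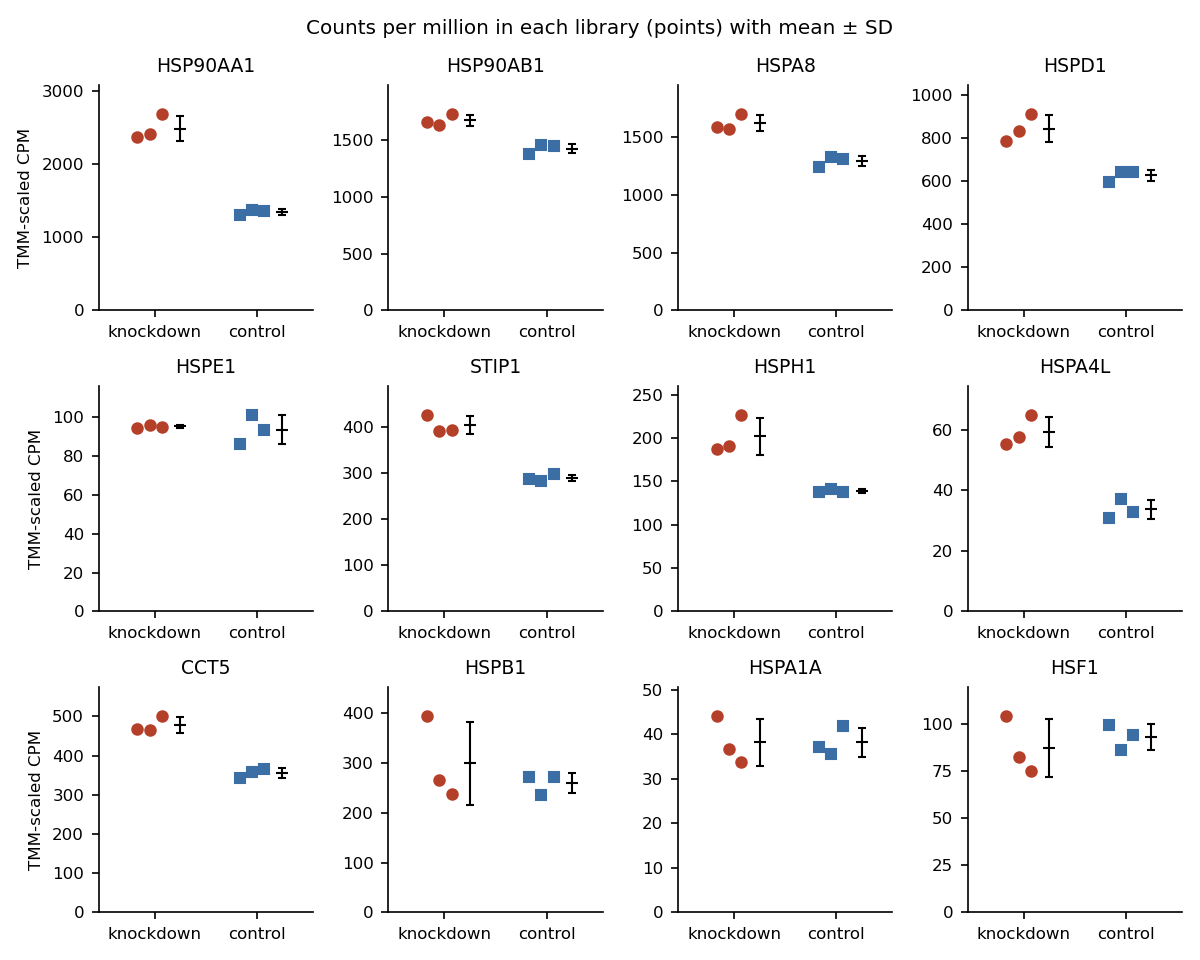
TMM-scaled CPM (y axis, from 0) of 12 chaperone genes in each library, 3 knockdown (red circles) and 3 control (blue squares), with mean ± SD as bars beside the points. HSP90AA1, HSP90AB1, HSPA8, HSPD1, STIP1, HSPH1, HSPA4L and CCT5 have no overlap between groups, while HSPE1, HSPA1A, HSPB1 and HSF1 overlap.

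Among HSP90 co-chaperones, 3 of 5 rose, beside 13% of all tested symbols. STIP1, which bridges HSP70 and HSP90, had 425, 391 and 393 CPM in the knockdown libraries, against 286, 283 and 297 CPM in controls. FKBP4, an immunophilin of steroid receptor complexes, had 186, 175 and 162 CPM in the knockdown, against 133, 125 and 129 CPM in controls. The groups did not overlap for either gene, and the log2 fold changes were 0.48 (SE 0.06, adjusted p = 3.09e-04, edgeR) and 0.44 (SE 0.07, adjusted p = 0.0014). CHORDC1, a stress-induced HSP90 partner, was at a lower level with 28.3, 33.5 and 36.0 CPM in the knockdown and 22.9, 23.2 and 27.4 CPM in controls (0.41, adjusted p = 0.020). It was not called without control library 1, control library 2 or knockdown library 2 (adjusted p from 0.075 to 0.094), or with rows kept separate (0.44). AHSA1, which stimulates the HSP90 ATPase, had a value of -0.13 (SE 0.07, adjusted p = 0.23), although its 3 knockdown libraries (67.8 to 74.2 CPM) lay below the controls (75.2 to 79.3 CPM). CDC37, the adaptor for kinase clients, was not called.

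The HSP70 and HSP110 genes split. HSPA8, the constitutive cytosolic HSP70 (chromosome 11, 123057489 to 123062462), had 1592, 1568 and 1701 CPM in the knockdown, against 1241, 1329 and 1310 CPM in controls, which is higher by 0.33 on the log2 scale (SE 0.06, adjusted p = 0.0026, edgeR). HSPH1, the inducible HSP110, had 188, 191 and 227 CPM in the knockdown, against 138, 141 and 137 CPM in controls (0.54, SE 0.08, adjusted p = 6.86e-04). HSPA4L, another HSP110 (chromosome 4, 127781796 to 127840733), had 55.5, 57.6 and 64.9 CPM in the knockdown, against 31.0, 37.3 and 33.0 CPM in controls (0.81, SE 0.10, adjusted p = 1.42e-04). All 3 genes separated the groups in every library. HSPA4, the steadily expressed HSP110, had 310, 317 and 356 CPM in the knockdown, against 276, 288 and 279 CPM in controls, and rose by 0.22 on the log2 scale (adjusted p = 0.037). HSPA13, a microsome-associated HSP70 relative, had 124, 143 and 159 CPM in the knockdown, against 108, 119 and 119 CPM in controls, and rose by 0.30 (adjusted p = 0.033). Neither gene's groups overlapped. Both lost their calls without any 1 library other than knockdown library 1 (adjusted p from 0.079 to 0.13 for HSPA4 and from 0.069 to 0.14 for HSPA13).

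The classical heat-inducible HSP70 genes, HSPA1A and HSPA1B, did not pass. They encode nearly the same protein and lie near each other on chromosome 6 (31815543 to 31817942 and 31827738 to 31830254), and the table held 5 rows for each, so reads may be split among them. With its rows summed, HSPA1A had 44.1, 36.8 and 33.8 CPM in the knockdown against 37.2, 35.6 and 41.9 CPM in controls (log2 fold change -0.0007, SE 0.11, adjusted p = 1.00, edgeR). HSPA1B had 63.5, 56.1 and 48.7 CPM in the knockdown against 45.6, 48.8 and 53.0 CPM in controls (0.19, SE 0.10, adjusted p = 0.20). The groups overlapped for both genes. The direction of HSPA1A turned positive with upper quartile scaling (0.0096). HSPA1B passed without knockdown library 3 (0.29, adjusted p = 0.037). The ratio of both genes together to HSPA8 was lower by 0.22 on the log2 scale in the knockdown. The libraries overlapped (exact permutation p = 0.3). This ratio was not recomputed with the GC trend described further on removed. With it removed the single genes were at 0.20 (HSPA1A), 0.37 (HSPA1B) and 0.27 (HSPA8). HSPA9, the mitochondrial HSP70 (mortalin), had 502, 506 and 538 CPM in the knockdown against 503, 533 and 528 CPM in controls (-0.02, SE 0.06, adjusted p = 0.87). Its direction turned without control library 2 (0.0036) or knockdown library 1 (0.0057). The log2 ratio of HSPA9 to HSPA8 was -1.65 ± 0.02 in the knockdown and -1.31 ± 0.0075 in controls (SD, n = 3 each, no overlap, exact permutation p = 0.1). HSPA2, known mainly from testis, had 0.890, 0.537 and 0.572 CPM in the knockdown against 1.77, 1.34 and 1.00 CPM in controls and missed the threshold (-1.04, SE 0.36, adjusted p = 0.055). It was called lower without knockdown library 1 (-1.29, adjusted p = 0.023).

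Heat shock elements, the sites that HSF1 binds, are inverted repeats of the 5-base unit NGAAN. Promoters of members were searched for GAANNTTC and TTCNNGAA (2 units) and for the same forms extended to 3 units (GAANNTTC followed by NNGAA, and TTCNNGAA followed by NNTTC, which contain the 2-unit forms), on both strands, in RefSeq windows of GRCh38.p14 from 250 bases before to 50 after the annotated gene start. Of 42 members with a window, 12 held a 2-unit match, 5 of the 20 called higher and 7 of those not called, and 4 held a 3-unit match (CHORDC1, HSPA8, DNAJA1 and DNAJB6). Of all 27305 promoters, 13.7% held a 2-unit and 0.487% a 3-unit match. The stretches below show that the same letters occur near the starts of genes that rose and of genes that did not. Each is given 5′ to 3′ on the gene's strand, with 15 flanking bases in lower case and matches in capitals.
CHORDC1 (rose), chr11:90223050-90223124, minus strand: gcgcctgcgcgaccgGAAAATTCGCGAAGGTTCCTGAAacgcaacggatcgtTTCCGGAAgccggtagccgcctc
HSPA8 (rose), chr11:123062164-123062206, minus strand: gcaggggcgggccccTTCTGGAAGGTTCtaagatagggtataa
HSPA8 (rose), chr11:123062339-123062381, minus strand: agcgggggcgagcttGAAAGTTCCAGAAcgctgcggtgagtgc
HSPB8 (rose), chr12:119178828-119178865, plus strand: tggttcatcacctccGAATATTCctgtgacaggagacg
DNAJA1 (not called), chr9:33025261-33025303, plus strand: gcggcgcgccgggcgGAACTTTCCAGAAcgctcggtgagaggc
DNAJB6 (not called), chr7:157336858-157336900, plus strand: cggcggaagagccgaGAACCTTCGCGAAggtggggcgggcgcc
HSPA1A (not called), chr6:31815422-31815459, plus strand: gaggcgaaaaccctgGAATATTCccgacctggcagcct
HSPA1B (not called), chr6:31827618-31827655, plus strand: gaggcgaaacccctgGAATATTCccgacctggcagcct

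In CHORDC1 the matches shown lie between bases -60 and -16 relative to the annotated start, and a further 2-unit match, not shown, lies at -205 to -198. The DNAJA1 match shown lies after the start, at bases 3 to 15. No match in a window says only that those letters are not in it. For HSP90AA1 the window belongs to the outermost annotated start, and GENCODE v29 places the start of another protein-coding transcript (HSP90AA1-201) 52558 bases downstream, outside the window. Of the 33 members with a principal GENCODE transcript, 25 had its start within 250 bases of the RefSeq start. For DNAJB1 the distance was 10851 bases and for DNAJB4 25679 bases. For CHORDC1 it was 315 bases and for HSPB8 289 bases. From those GENCODE starts the CHORDC1 and HSPB8 stretches shown lie downstream. For HSPA8 the RefSeq start used (123062136) lies inside the gene range given above, as do both HSPA8 stretches shown.

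Of 10 J-proteins, which deliver substrates to HSP70 and start its ATPase, 2 rose, beside 13% of all tested symbols. The number was 0 without any 1 control (7.27 to 8.94% of all tested symbols higher) and 1 without knockdown library 2 or 3 (7.46% and 11.1%). It was 4 without knockdown library 1 (18.7%). DNAJC7, a co-chaperone with tetratricopeptide repeats, had 64.2, 62.7 and 71.4 CPM in the knockdown libraries against 52.8, 53.5 and 53.9 CPM in controls (log2 fold change 0.31, SE 0.08, adjusted p = 0.015, edgeR). It was not called without any 1 control (adjusted p from 0.052 to 0.065). DNAJB4 had 24.7, 26.0 and 32.3 CPM in the knockdown against 20.2, 20.7 and 24.0 CPM in controls (0.36, adjusted p = 0.046). Its call was lost with limma-voom (0.050), with rows kept separate (0.068) and without any 1 library other than knockdown library 1 (0.058 to 0.16). DNAJA1, the J-protein gene with the highest CPM, had 231, 255 and 279 CPM in the knockdown against 209, 234 and 229 CPM in controls, with overlapping groups (0.19, adjusted p = 0.11). It passed without knockdown library 1 (0.26, adjusted p = 0.0060). DNAJB1, the inducible partner of HSPA1A, had 197, 180 and 180 CPM in the knockdown against 167, 162 and 169 CPM in controls. Its groups did not overlap, but it missed the threshold (0.16, SE 0.07, adjusted p = 0.10). The other 6 J-proteins were not called, and DNAJA4 was near the limit of detection with 7, 21 and 23 counts against 17, 9 and 14 counts.

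Among the nucleotide exchange factors of the BAG family and the ubiquitin ligase gene STUB1, 1 of 6 rose, beside 13% of all tested symbols. BAG5 had 49.1, 52.0 and 55.3 CPM in the knockdown against 40.6, 46.0 and 43.6 CPM in controls (log2 fold change 0.27, SE 0.09, adjusted p = 0.039, edgeR). It was not called without any 1 library other than knockdown library 1 (adjusted p from 0.056 to 0.16) or with rows kept separate (0.051). BAG2, which inhibits STUB1, was just outside the threshold (0.28, adjusted p = 0.056) and inside it with DESeq2 (0.048) or without knockdown library 1 (0.0033). BAG3, the heat-inducible member that works with HSPB8 in selective autophagy, had 84.4, 78.8 and 66.9 CPM in the knockdown against 76.9, 75.4 and 75.1 CPM in controls (0.02, adjusted p = 0.91), and its direction turned without knockdown library 1 (-0.05) or 2 (-0.0037). STUB1 had 115, 90.7 and 94.5 CPM in the knockdown against 131, 105 and 113 CPM in controls (-0.21, SE 0.11, adjusted p = 0.16). Without knockdown library 1 it was called lower (-0.32, adjusted p = 0.0045).

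Of the small heat shock proteins, which bind unfolding proteins without ATP, HSPB8 rose and HSPB1 did not pass. HSPB8 had 42.4, 37.1 and 37.6 CPM in the knockdown against 30.8, 28.9 and 31.0 CPM in controls (log2 fold change 0.37, SE 0.09, adjusted p = 0.011, edgeR). HSPB1 had 394, 265 and 238 CPM in the knockdown against 271, 236 and 272 CPM in controls (0.20, SE 0.17, adjusted p = 0.43). Knockdown library 1 stood above the rest and the other 2 lay within the range of the controls, and without it the value was -0.04. The rise of HSPB8 separated the groups in every library.

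The mitochondrial chaperonin genes HSPD1 and HSPE1, whose products form the HSP60 cage and its HSP10 lid, are head-to-head neighbours on chromosome 2 and differed. HSPD1 had 789, 833 and 913 CPM in the knockdown libraries, against 597, 642 and 644 CPM in controls, without overlap (log2 fold change 0.43, SE 0.07, adjusted p = 0.0011, edgeR). HSPE1 had 94.6, 96.1 and 94.9 CPM in the knockdown against 86.0, 101 and 93.3 CPM in controls, and overlapped (0.03, SE 0.08, adjusted p = 0.83). Its direction turned without control library 1 (-0.03). The log2 ratio of HSPD1 to HSPE1 counts was higher by 0.40 in the knockdown (SE 0.07), with all 3 libraries above the controls (exact permutation p = 0.1). In RefSeq the starts lie 105 bases apart. The stretch between them is shown because, by the RefSeq starts, it is the promoter side of both genes (HSPD1 reads to the left and HSPE1 to the right). It holds no heat shock element of the forms searched. The nearest principal GENCODE v29 start of HSPE1 is at 197499994, 385 bases from the RefSeq start and to the left of the stretch. From that start the stretch lies downstream.
HSPD1-HSPE1, chr2:197500274-197500379, plus strand: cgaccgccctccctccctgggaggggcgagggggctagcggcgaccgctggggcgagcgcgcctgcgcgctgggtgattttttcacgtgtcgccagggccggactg
Of the 5 mitochondrial members (TRAP1, HSPA9, DNAJA3, HSPD1 and HSPE1), HSPD1 was the 1 that rose, beside 13% of all tested symbols. Their median log2 fold change was 0.03.

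Of the 8 subunit genes of TRiC, the cytosolic chaperonin of actin and tubulin, 7 rose, beside 13% of all tested symbols, and CCT3 did not pass. In all 8 genes the 3 knockdown libraries lay above the 3 controls (21.6% of all tested symbols), with a median log2 fold change of 0.29. CCT5 had 467, 464 and 501 CPM in the knockdown, against 342, 359 and 365 CPM in controls (0.42, SE 0.06, adjusted p = 6.62e-04, edgeR). CCT4 had 265, 252 and 277 CPM in the knockdown, against 192, 198 and 200 CPM in controls (0.43, adjusted p = 7.43e-04). TCP1 had 215, 210 and 233 CPM in the knockdown, against 158, 177 and 167 CPM in controls, and rose by 0.39 on the log2 scale. CCT6A is the subunit gene with the highest CPM. It had 523, 534 and 571 CPM in the knockdown, against 432, 448 and 447 CPM in controls, and rose by 0.30. CCT3, with 472, 434 and 457 CPM in the knockdown against 421, 431 and 433 CPM in controls, did not pass (0.08, SE 0.06, adjusted p = 0.35). The other subunits that rose did so by less than CCT4 and CCT5. CCT8, with its 2 rows summed, had 264, 274 and 288 CPM in the knockdown, against 213, 234 and 227 CPM in controls (0.29). CCT2 had 303, 309 and 340 CPM in the knockdown, against 258, 280 and 273 CPM in controls (0.23). CCT7 had 367, 334 and 346 CPM in the knockdown, against 291, 295 and 309 CPM in controls (0.23). CCT8 lost its call without control library 1 (adjusted p = 0.056) or with rows kept separate (0.19), CCT7 without any 1 control or knockdown library 2 (0.059 to 0.10), and CCT2 without any 1 library other than knockdown library 1 (0.059 to 0.13). The number of subunits called was 4 without control library 1 (7.31% of all tested symbols higher). The 8 genes took 0.281%, 0.282% and 0.302% of counts in the knockdown and 0.231%, 0.244% and 0.243% in controls.

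Sorted by textbook inducibility, 7 of 15 strongly heat-inducible members rose with a median log2 fold change of 0.29, beside 13% of all tested symbols called higher. Of 20 constitutive cytosolic members, 12 rose with a median of 0.23. The 12 became 5, 7 and 6 without control library 1, 2 and 3 (7.31%, 8.94% and 7.27% of all tested symbols higher). They became 7 without knockdown library 2 (7.46%). Without knockdown library 1, 13 of the 20 were higher and 3 lower (18.7% and 20.5% of all tested symbols). Of the 15 inducible members, 5, 5 and 6 were higher without control library 1, 2 and 3, and 5 without knockdown library 2. Without knockdown library 1, 7 of the 15 were higher. Without knockdown library 3, 7 of the 15 and 9 of the 20 were higher (11.1% of all tested symbols). Both sorts therefore held genes that rose and genes that did not, and the difference between the lists was not tested. The inducible median of 0.29 is the value of DNAJA4, a gene with 7 to 23 counts a library. The order of the 2 medians turned in some settings. They were 0.19 (inducible) and 0.23 (constitutive) with limma-voom, 0.22 and 0.23 with the replicate block, and 0.19 and 0.25 without control library 2. Inside families the ratio of the inducible gene to its partner was higher in some pairs and not in others. The log2 ratio of HSPH1 to HSPA4 was higher by 0.31 (SE 0.03) in the knockdown and that of BAG3 to BAG1 by 0.26 (SE 0.06). Neither ratio overlapped between groups. BAG3 itself was at 0.02 and BAG1 at -0.25, neither of them called. The log2 ratio of HSPA1A and HSPA1B together to HSPA8 went the other way (-0.22, SE 0.15), with overlap. The ratio of DNAJB1 to DNAJB6 differed by 0.0005 (SE 0.13) and that of DNAJA1 to DNAJA2 by 0.06 (SE 0.03), with overlap. Of the 10 ratios, 6 had no overlap, each with an exact permutation p of 0.1 (0.17 after adjustment over the 10). For single symbols, the CPM of the groups did not overlap in 42% of those tested. No such share was computed over ratios, and the pairs were chosen with earlier results known.

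**Figure D3:**
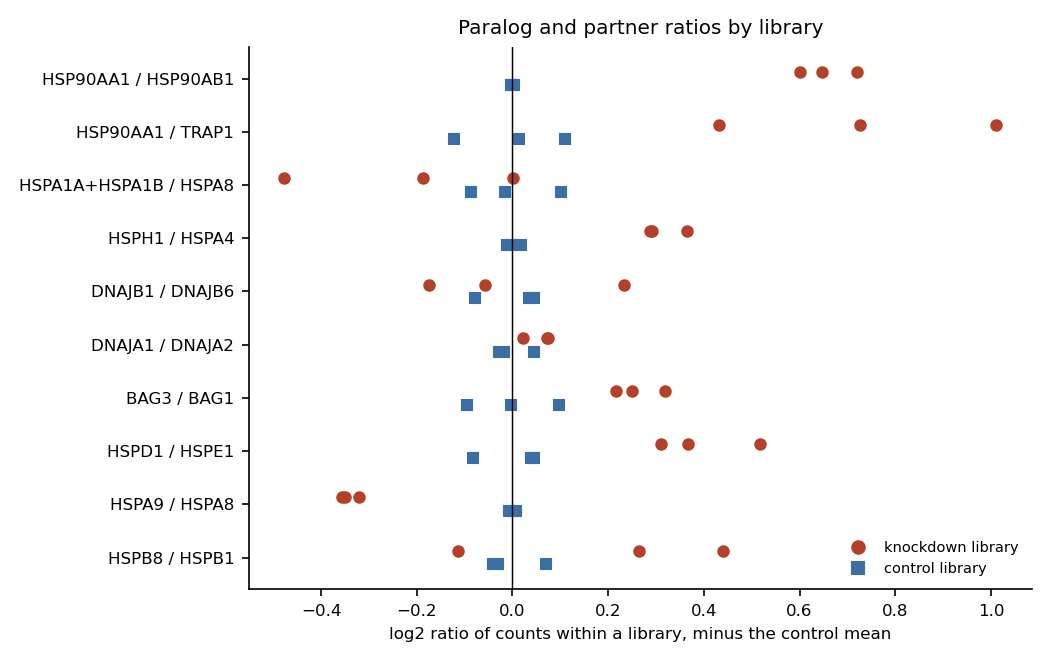
Log2 ratio of counts of 2 genes within each library minus the mean of the 3 controls (x axis), for 10 pairs (y axis); red circles are knockdown and blue squares control libraries. For HSP90AA1 over HSP90AB1 the knockdown libraries lie about 0.66 to the right of controls that differ by less than 0.01, and for HSPA9 over HSPA8 they lie 0.34 to the left.

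Fold changes in these libraries followed the GC content of the transcript, and chaperone genes span a wide range of it, 33.1 to 65.3% with a median of 46.1%, against a median of 48.6% over the tested genes with a transcript. Each library's median log2 CPM, less the control mean, was taken for symbols with at most 40.8% and at least 58.1% GC content and an average log2 CPM of 3 or more. The low-GC median exceeded the high-GC median by 0.055, 0.47 and 0.75 in knockdown libraries 1 to 3, against -0.12, 0.14 and -0.03 in control libraries 1 to 3. Spearman's rho of GC content with log2 fold change was -0.39 across the 48 members and -0.45 across all 12952 genes with a transcript; genes share libraries, so these are descriptions.

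With each library's trend over GC content and length removed, 29 members were higher and 3 lower (HSPA2, HSPA9 and BAG1). Of the 22 called before, 21 were called again, at log2 fold changes of 0.82 for HSP90AA1, 0.71 for HSPA4L, 0.52 for STIP1, 0.41 for HSPH1, 0.34 for HSPD1 and 0.20 for HSP90AB1, and DNAJB4 was not (0.18, adjusted p = 0.096). The 8 added were HSPB1 (0.52, adjusted p = 8.63e-04), HSPA1B (0.37, adjusted p = 8.11e-05), HSPA1A (0.20, adjusted p = 0.024), HSF1, TRAP1 (0.28), DNAJB1 (0.21), DNAJB2 (0.31) and BAG3 (0.15). Among the 15 strongly heat-inducible members 11 were then higher and 0 lower. Among the 20 constitutive cytosolic members 13 were higher and 1 lower. Of all tested symbols 18.6% were called higher and 15.7% lower (18.7% and 16.2% with the replicate block added). Values were smaller by more than 1.5 times for HSPA13 (0.14), HSPA4 (0.12), CCT2 (0.13), CCT8 (0.19), CHORDC1 (0.26) and BAG5 (0.17), all still called, and STUB1 turned to 0.14 (adjusted p = 0.16). The statements above that HSPA1A, HSPA1B, HSPB1, DNAJB1 and BAG3 did not pass thus hold for the uncorrected counts. The ratios are of uncorrected counts too, and only that of HSP90AA1 to HSP90AB1 was also computed with the trend removed. Corrected log2 fold changes were 0.21 and 0.05 for DNAJB1 and DNAJB6, and 0.43 and 0.52 for HSPB8 and HSPB1. For HSPH1 and HSPA4 they were 0.41 and 0.12.

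**Figure D4:**
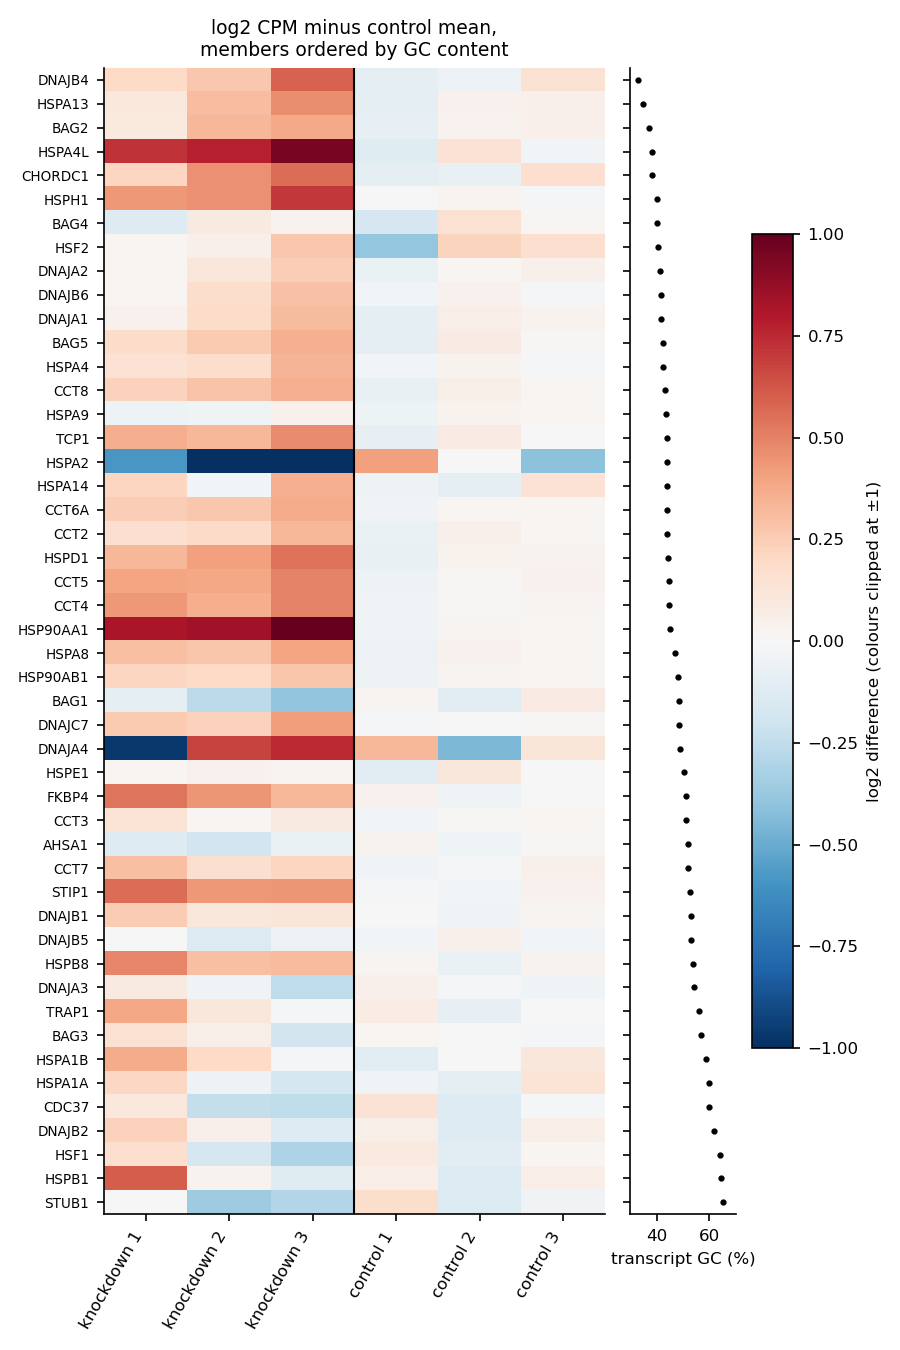
Log2 CPM of each member in each library minus its control mean (colour, red above and blue below, clipped at 1 in either direction), with members ordered from low (top) to high (bottom) GC content of their transcript, plotted as points at the right in percent. HSP90AA1 and HSPA4L are red in all 3 knockdown libraries, while GC-rich genes such as HSPB1 are reddest in knockdown library 1.

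**Figure D5:**
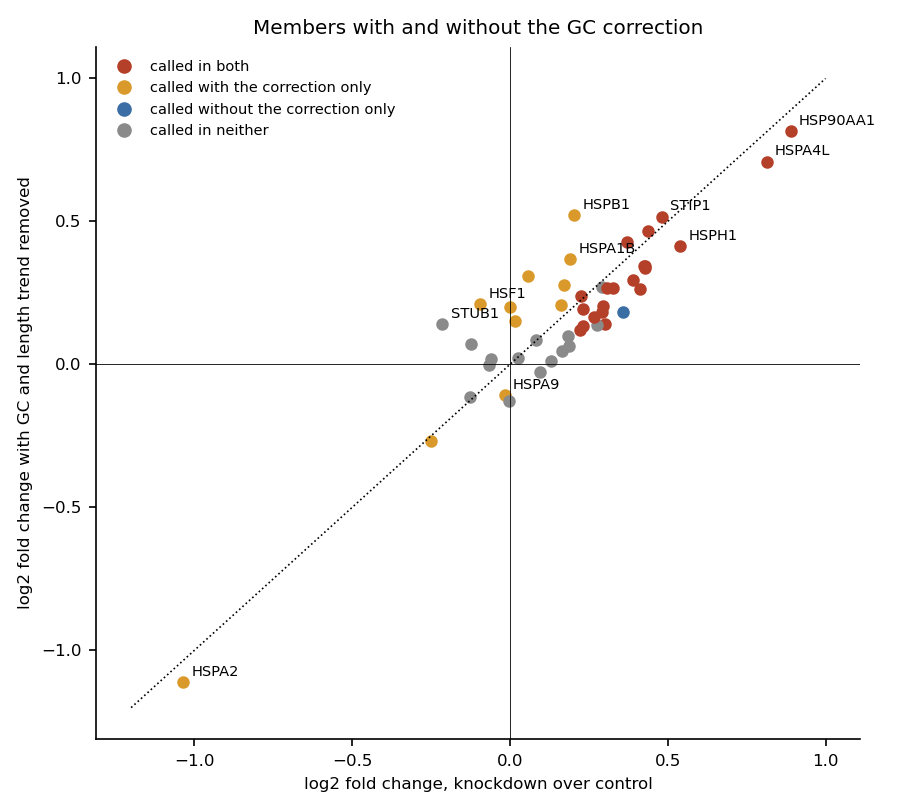
Log2 fold change of each member as tested (x axis) and with the trend over GC content and length removed (y axis); the dotted line marks equal values and colours mark which of the 2 fits called the gene. HSP90AA1 moves from 0.89 to 0.82, while HSPB1 (0.20 to 0.52) and HSPA1B (0.19 to 0.37) lie above the line.

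Other genes of the same machinery, from lists made of partners and relatives outside the 48, were split in direction; the difference from the 48 was not tested. Of 113 tested genes in these lists, 20 rose and 13 fell, with a median log2 fold change of 0.0037, beside 13% and 13.1% of all tested symbols. With the GC content and length trend removed, 30 rose and 19 fell (18.6% and 15.7% of all tested symbols). The count higher was 10 without control library 1 (7.31% of all tested symbols) and 11 without knockdown library 2 (7.46%). It was 12 without control library 2 or 3 (8.94% and 7.27%). The count lower was 3 without control library 1 (6.62%), 5 without control library 3 (6.69%) and 6 without knockdown library 2 (7.11%). It was 25 without knockdown library 1 (20.5%). Of 19 other HSP90 co-chaperones, 5 rose and 2 fell. PTGES3 (p23), which binds the closed form of HSP90, averaged 512 ± 46.8 CPM in the knockdown and 404 ± 22.9 CPM in controls (SD, n = 3 each; log2 fold change 0.34, adjusted p = 0.0079, edgeR), and TTC4 and SUGT1 rose by 0.49 and 0.35.

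Of 10 prefoldin and TRiC cofactor genes, which pass actin and tubulin to TRiC, 2 rose (VBP1 by 0.37 and PFDN4 by 0.46). PFDN6 fell by 0.50 on the log2 scale. Over all tested symbols edgeR called 13% higher and 13.1% lower (19.2% and 19.5% at an unadjusted p under 0.05). DESeq2 called 13.6% and 13.8%, and limma-voom 12.9% and 13.4%. PFDN6 was not called without control library 1 or knockdown library 2 (adjusted p up to 0.084). Of 18 mitochondrial proteases and import partners, 0 rose and 4 fell in edgeR (2 and 5 at an unadjusted p under 0.05; DESeq2 called 1 and 4, limma-voom 0 and 4). The smallest p of the 4 belonged to PAM16 (-0.61), DNLZ (-0.55) and TIMM44 (-0.40), genes of the import motor and its HSP70 partners. PAM16 lost its call without control 1 or 3, DNLZ without control 1 or 3 or knockdown 2 or 3, and TIMM44 without any 1 library other than knockdown 1 (adjusted p up to 0.58, 0.82 and 0.14 over all alternatives). With the GC content and length trend removed DNLZ was at -0.06 (adjusted p = 0.82), PAM16 at -0.36 and TIMM44 at -0.21, and LONP1 (0.17) and DNAJC11 (0.26), named after their values were seen, were called higher. SERPINH1, which encodes HSP47, the collagen chaperone of the endoplasmic reticulum and an HSF1 target, fell to 547 ± 54.8 CPM in the knockdown, against 868 ± 34.4 CPM in controls (-0.67, adjusted p = 1.18e-04). Of 18 endoplasmic reticulum chaperone genes, 3 rose and 4 fell, beside the same 13% and 13.1% of all tested symbols. Among them the lectin chaperone gene CANX rose by 0.46, and CRELD2 fell by 0.56 and HERPUD1 by 0.37.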

How the data were processed

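RNA from 3 GDH1 knockdown and 3 control cultures of LN229 was sequenced. The deposited table holds whole-number read counts per gene row, unnormalized, judged from the values. GRCh38.p14 is the build in the submitters' processing notes. No source used here gives the aligner, the counter, the strand setting or how reads matching pseudogenes or near-identical copies were counted, so HSPA1A and HSPA1B, and to a lesser extent genes with many pseudogenes (HSP90AA1, HSPA8, HSPD1, HSPE1), are uncertain. Replicates came from titles.

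Rows of the same symbol were summed over the whole table (28196 rows, 24976 symbols; 1634 symbols had several rows, and 4956 rows are unnamed loci, kept in totals). Symbols were filtered with filterByExpr, scaled by TMM and tested with edgeR 4.0.16 (robust glmQLFit and a two-sided glmQLFTest; R 4.3.3). Benjamini-Hochberg adjustment ran over 15638 symbols, with a threshold of 0.05. SE is the log2 fold change over the square root of F. The biological coefficient of variation was 0.111. Ratios were compared by exact permutation over libraries, whose smallest p is 0.1.

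Alternatives were RLE and upper quartile scaling, other filters, DESeq2 1.42.0, limma-voom (limma 3.58.1), the replicate number as a block, unsummed rows (the largest row of a symbol read), each library left out, stricter thresholds, and removal of each library's loess trend (span 0.5) over GC content and length of a GENCODE v29 transcript, which 82.8% of symbols and all 48 members had. Members, lists and ratios were chosen with earlier results of these data known. Values per library are given for HSP90AA1, HSP90AB1, HSF1, members called and the member of highest CPM in each role; other members named were chosen after their values were seen. Of the other lists, up to 3 called genes with the smallest p may be named.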

Additional observations from a re-analysis of the deposited data

How the results depend on the processing

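The 22 members higher became 8 with glmTreat against a 1.2-fold change, 12 at an adjusted p under 0.01, and 12 to 25 with 1 library left out. The 0 lower became 1 with only symbols at 1 CPM or more in 3 libraries tested, 2 with the replicate block, 3 with the GC content and length trend removed, 3 with both, and 0 to 5 with 1 library left out. HSP90AA1 kept its call under each alternative run, and HSP90AB1 ranged from 0.21 to 0.25 with 1 library left out. The ratio of these genes ranged from 0.62 to 0.68 over the alternatives. In the other lists, 20 higher became 4 with glmTreat, 9 at the stricter threshold and 10 to 30 with 1 library left out. The 13 lower became 20 with the replicate block, 19 with the trend removed (30 higher) and 7 with rows kept separate. They became 2 with glmTreat, 3 at the stricter threshold and 3 to 25 with 1 library left out. The shares of all tested symbols called in these settings are given with the member counts above. Directions turned for members that were not called, among them HSF1 (0.21 with the trend removed, 0.21 with trend and block, 0.23 for its larger row where rows were kept separate, its other row going down, -0.24 to 0.0071 with 1 library left out), HSPA1A (0.0096 with upper quartile scaling, 0.0010 with the stricter filter, 0.20 with the trend removed, 0.20 with the block too, -0.11 to 0.083), STUB1 (0.14 and 0.14 with the trend removed, without and with the block), and with 1 library left out HSPA9 (-0.047 to 0.0057), BAG3 (-0.053 to 0.11), HSPB1 (-0.041 to 0.35) and HSPE1 (-0.026 to 0.091). Over all alternatives HSF2 (-0.07 to 0.21), CDC37 (-0.25 to 0.07), DNAJA3 (-0.14 to 0.14), DNAJB2 (-0.04 to 0.31) and BAG4 (-0.13 to 0.08) turned too. The causes of these moves were not tested.

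Same-numbered libraries share only a number: the correlations of their deviations from group means were 0.40, 0.11 and -0.11, and knockdown library 3 correlated best with control library 2 (0.49). With the replicate block 23 members were higher and 2 lower, BAG2 passing (adjusted p = 0.031) and HSPA2 and STUB1 called lower. Depth limits DNAJA4 and HSPA2, at 7 to 61 counts a library.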

Other observations

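The 5 symbols outside the 48 whose log2 CPM over the 6 libraries was most like that of HSP90AA1 (among symbols averaging 3 or more) were SMS, CCN3, ARHGAP29, SYNJ2 and CORO1C, with Pearson's r from 0.9987 to 0.9995. The points are the same 6 libraries in 2 groups, so r mainly reflects the difference between groups and is given without a test. SMS, the spermine synthase gene, averaged 185 ± 10.96 CPM in the knockdown and 103 ± 3.67 CPM in controls (SD, n = 3 each), a log2 fold change of 0.85, close to the 0.89 of HSP90AA1. CCN3, a matricellular protein gene, averaged 52.4 ± 3.34 CPM in the knockdown and 26.7 ± 0.903 CPM in controls (0.97).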
